A study of Mus musculus with 4 samples.

Results

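The 8 genes described here are products of the Paneth cell: the α-defensins Defa21, Defa22, Defa24, Defa26 and Defa30, lysozyme P (Lyz1), the ribonuclease Ang4 and the protease Mmp7. They were taken by symbol from the gene table of the deposited matrices, where all 8 were found among 32285 genes, and their counts were read in every deposited barcode. The counts come from droplet single-cell RNA sequencing of small intestinal epithelium of irradiated mice. A barcode stands for 1 droplet, and a count is a unique molecular identifier (UMI), that is, 1 captured RNA molecule read at its 3′ end.

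The study compared 2 genotypes, wild-type mice (WT) and VilCreIfnlr1fl/fl mice (KO), in which Cre recombinase driven by the Villin promoter removes the interferon-λ receptor gene Ifnlr1 from intestinal epithelium. All animals, WT included, had been sedated with ketamine and xylazine and had received 11 Gy of gamma radiation with the head, thorax and upper limbs shielded by lead. The series design gives 96 h as the time of collection and the extraction protocol gives 3 days, and these were not reconciled. Crypt-enriched epithelium was released with EDTA and sorted for live EPCAM+ CD45- cells, so the cells had passed a gate for epithelium. The cells of 3 mice per genotype carried 1 hashtag antibody each and were pooled into 1 library per genotype. Genotype and library can therefore not be told apart, and the age and strain of the mice are not given in the sources used here.

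Paneth cells sit at the base of the small intestinal crypts among the stem cells and release granules of antimicrobial proteins into the lumen. Mouse α-defensins, also called cryptdins, are small cysteine-rich peptides made as inactive precursors, and Mmp7 (matrilysin) is the granule protease that cuts them into their active form. Lyz1 digests bacterial cell walls, and Ang4 is an angiogenin-family ribonuclease stored in the same granules. These RNAs are among the most abundant of a Paneth cell, so a small leak of RNA into the cell suspension can place their molecules in droplets of other cells.

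The sequences of 4 of the defensins are shown because they form 2 closely alike pairs, Defa24 with Defa30 and Defa21 with Defa22. Counts of Defa24 and Defa30 differ below all the same. All 5 defensins lie on the + strand of chromosome 8 within 710 kb (GRCm38, GENCODE annotation), each with 2 exons and 279 coding bases. They are Defa21 at chr8:21025545-21026516, Defa30 at chr8:21134642-21135598, Defa22 at chr8:21162277-21163249, Defa26 at chr8:21618183-21618972 and Defa24 at chr8:21734494-21735471. Lyz1 (chr10:117287797-117292868, - strand), Ang4 (chr14:51763878-51773590, - strand) and Mmp7 (chr9:7692090-7699585, + strand) have 4, 2 and 6 exons. The coding sequences below run 5′ to 3′ on the + strand, and capitals mark the bases that differ from Defa24.
Defa24: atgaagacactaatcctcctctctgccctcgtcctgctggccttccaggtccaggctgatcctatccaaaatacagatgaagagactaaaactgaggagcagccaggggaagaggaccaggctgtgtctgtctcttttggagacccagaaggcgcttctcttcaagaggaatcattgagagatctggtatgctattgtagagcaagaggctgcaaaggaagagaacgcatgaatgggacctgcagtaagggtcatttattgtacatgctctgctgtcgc
Defa30: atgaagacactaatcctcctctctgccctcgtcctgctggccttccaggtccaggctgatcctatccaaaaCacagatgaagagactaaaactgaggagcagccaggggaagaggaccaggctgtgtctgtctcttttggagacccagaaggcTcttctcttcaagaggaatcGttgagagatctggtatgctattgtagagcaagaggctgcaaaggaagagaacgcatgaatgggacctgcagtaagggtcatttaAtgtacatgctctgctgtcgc
Defa21: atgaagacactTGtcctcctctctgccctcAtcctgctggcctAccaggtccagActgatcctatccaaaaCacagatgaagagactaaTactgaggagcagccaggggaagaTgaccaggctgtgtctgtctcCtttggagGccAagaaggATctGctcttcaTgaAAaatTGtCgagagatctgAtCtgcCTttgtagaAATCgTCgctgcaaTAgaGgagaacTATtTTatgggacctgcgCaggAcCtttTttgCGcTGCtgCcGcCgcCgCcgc
Defa22: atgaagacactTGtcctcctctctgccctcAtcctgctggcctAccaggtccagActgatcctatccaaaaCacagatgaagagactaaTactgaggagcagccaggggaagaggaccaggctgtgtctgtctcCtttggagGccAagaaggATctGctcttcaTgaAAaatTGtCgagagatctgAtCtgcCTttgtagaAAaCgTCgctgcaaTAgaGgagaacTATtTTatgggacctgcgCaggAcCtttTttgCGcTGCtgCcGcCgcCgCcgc
Defa24 and Defa30 were identical at 98.6% of coding bases, with 4 differences. Defa21 and Defa22 were identical at 99.3%, with 2 differences, whereas Defa21 and Defa24 shared 80.5% of aligned bases. The libraries count 3′ ends, so the last 300 bases of each transcript were cut into windows of 90 bases and sought in the other genes of the families. Defa21 and Defa22 had 38.9% of their windows in common with each other, so part of their counts cannot be assigned to either with certainty. No window of Defa24, Ang4 or Mmp7 occurred in another family member, and 1.42% of those of Defa30, 6.16% of those of Defa26 and 7.11% of those of Lyz1 (with Lyz2) did. Defa24 and Defa30 are thus told apart by 3′ reads although their coding parts are nearly alike.

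RefSeq promoters (GRCm38.p6) were at hand for 6 of the 8 genes, all but Defa24 and Defa26. Of these, 2 sequences are shown, that of Defa30 and the one that Defa21 and Defa22 have in common. Whether a promoter bears on the counts was not tested, and part of the counts of Defa21 and Defa22 cannot be assigned to either gene. The 300 bases around the start of Defa21 and of Defa22 were identical letter for letter, and those of Defa30 matched them at 66.7% of positions. The 150 bases before each start run 5′ to 3′ on the + strand, with capitals at ATCAAAG, the reverse complement of CTTTGAT, a motif of the TCF/LEF factors that carry the Wnt signal. The sequence for Defa21 is chr8:21025395-21025544 and that for Defa22, with the same letters, chr8:21162127-21162276. Defa30 is shown from chr8:21134500-21134649. Its last bases lie inside the GENCODE gene given above, which starts at 21134642, because the RefSeq start lies further along. Positions below count from the RefSeq start.
Defa21 and Defa22: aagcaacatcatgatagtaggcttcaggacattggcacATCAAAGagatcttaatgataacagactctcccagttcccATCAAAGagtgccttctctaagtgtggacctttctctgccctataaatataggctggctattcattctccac
Defa30: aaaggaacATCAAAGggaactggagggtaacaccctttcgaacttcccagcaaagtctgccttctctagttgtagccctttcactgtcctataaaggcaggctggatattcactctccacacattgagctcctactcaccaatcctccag
The motif stood at -112 and -72 from the start in Defa21 and Defa22 and at -142 in Defa30. Both strands were searched, and 3.73% of 32851 promoters of this length held it. It stood at +5 in 1 promoter entry of Mmp7 and at -247 in the other. In Lyz1 and Ang4 these letters were not in the window.

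The libraries held 10453 barcodes and 102915321 gene UMIs for WT and 7370 barcodes and 110960113 gene UMIs for KO, and 28 barcode sequences occurred in both. After filters (1000 UMIs, 500 genes, at most 25% mitochondrial UMIs) 5563 WT and 4028 KO barcodes remained, of which 549 and 305 carried the hashtags of more than 1 mouse and 2241 and 855 could be given to no mouse. Each mouse was left with 843 to 1062 cells. The targeted gene, Ifnlr1, stood at 22.6, 15.5 and 26.3 CPM (UMIs in 1000000 UMIs of the same cells) in the 3 WT mice and at 26.9, 16.0 and 22.7 CPM in the KO mice. Which bases are deleted is not given in the sources used here, and 3′ reads outside them would remain, so this level does not check the labels. WT and KO below name the libraries as labelled. Cell classes were named from markers that exclude the 8 genes, and in cluster 12, an unnamed cycling cluster of deep cells, all cells with a mouse came from the mice of hashtag 2 (86 in WT and 162 in KO).

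In both libraries the 8 genes were concentrated in a few droplets. They gave 1139519 UMIs in WT, which is 1.11% of all gene UMIs, and 1873629 in KO, 1.69%. The 10 barcodes richest in them held 58.7% of these UMIs in WT and 48.3% in KO, and the 100 richest held 93.6% and 96.2%. Defa24 was the most abundant member with 704947 UMIs in WT and 1143861 in KO, followed by Defa30 with 228786 and 467789 and Lyz1 with 108378 and 128304. Defa26 had the fewest, 2985 in WT and 5510 in KO.

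Paneth-like cells were 69 barcodes in WT and 56 in KO and held 77.0% of the members' UMIs in WT (exact 95% interval 76.9 to 77.1) and 67.3% in KO (67.3 to 67.4). Droplets with the hashtags of 2 or more mice held a further 14.4% in WT and 22.2% in KO, and in KO 1 barcode of cluster 12 held 84509 of them. These intervals, like those below, cover counting error only. The class rested on 8 of its 9 naming markers, among them Mptx2, Itln1, Clps, Habp2 and Ccl6. The 9 together gave 33276 (WT) and 21945 (KO) CPM in Paneth-like cells against 165 and 112 CPM in enterocyte-like cells. A further 39 WT and 21 KO cells of the same cluster were split off because goblet or cell cycle markers scored highest in their sub-clusters. They had medians of 134 and 91 member UMIs. The goblet score led narrowly, at 0.388 against 0.362 for stem markers, and 0 goblet markers were among the 10 leading genes of that sub-cluster. Goblet markers were also present in the Paneth-like cells, all 8 of 8 and 60700 and 84448 CPM in sum, and Spink4 and Agr2, which Paneth cells share, are among them. Stromal and immune markers were at or near 0 (0 to 1.22 CPM in sum).

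**Figure D1:**
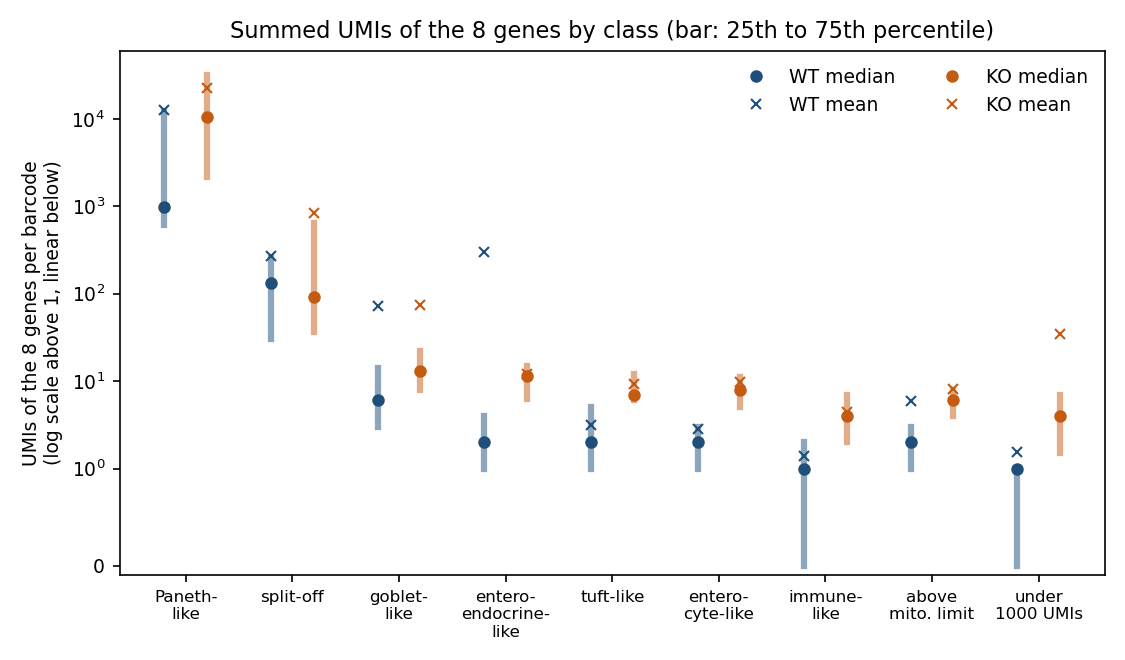
UMIs of the 8 genes per barcode (vertical axis, logarithmic above 1) by class of barcode, with the WT library in blue and the KO library in orange; dots are medians, crosses means and bars the 25th to 75th percentile over barcodes. Paneth-like cells lie at medians of 974 (WT) and 10483.5 (KO), and every other class plotted, except the cells split from the Paneth cluster, has a median of 13 or less.

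Member UMIs per Paneth-like cell had a median of 974 in WT and 10483.5 in KO, but this difference did not hold within mice. Of the 69 WT cells, 45 had no mouse and were shallow, with a median of 3513 UMIs of all genes, and their median was 731 member UMIs. Among cells with a mouse the medians were 15331 (9 cells), 18270 (13 cells) and 35623 (2 cells) in WT, and 12295.5 (18 cells), 3299 (14 cells) and 21739.5 (20 cells) in KO. The mice of the 2 genotypes overlapped. As a share of all UMIs the members made up 34.7%, 37.7% and 33.9% in WT1 to WT3 and 25.2%, 26.9% and 33.0% in KO1 to KO3, so that each WT mouse lay above each KO mouse. WT1 and WT3 had fewer than 10 Paneth-like cells and no test across genes was run in this class, so these values are a description. How many of all genes separated the mice of the 2 genotypes in this class was not counted. The class also held 1 WT and 6 KO cells with at most 100 member UMIs.

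**Figure D2:**
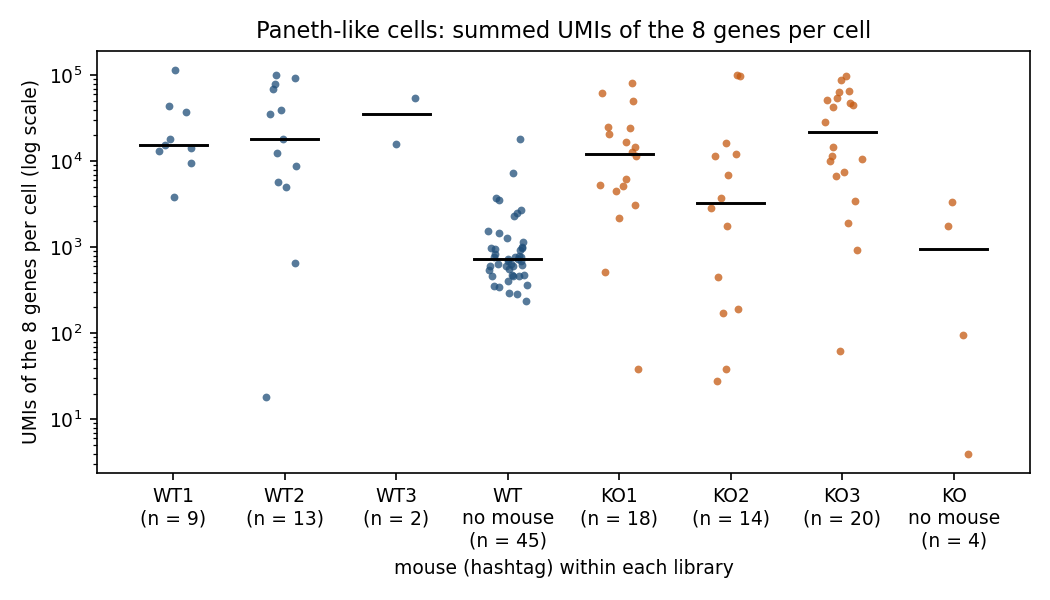
Each point is a Paneth-like cell, placed by its UMIs of the 8 genes (logarithmic axis) and by mouse; black lines are medians and n the cells. The 45 WT cells without a mouse lie around 731 UMIs, and the cells with a mouse reach from 18 to 115502.

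Among the defensins, Defa24 alone took 59.2% of the members' UMIs in WT Paneth-like cells and 61.5% in KO. By mouse its level was 214279, 215280 and 222277 CPM in WT and 161751, 158743 and 201404 CPM in KO. Each WT mouse lay above each KO mouse, which is a description without a count over all genes. This defensin made up more of the RNA than any other member. Defa30 followed with 81898, 71996 and 85654 CPM in WT and 63264, 62354 and 91436 CPM in KO, where the groups overlapped. Defa21 and Defa22 differed far more between mice than between genotypes. Defa21 stood at 5382, 19625 and 1294 CPM in WT and 5604, 15283 and 3262 CPM in KO. The mice of hashtag 2 were the highest in both genotypes, and Defa22 had the same order in WT (5135, 17228 and 685 CPM) and in KO (3150, 7984 and 2544 CPM). Defa26 stayed between 335 and 1370 CPM in all 6 mice.

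The other granule proteins were lower than the leading defensins. Lyz1, the lysozyme, stood at 31834, 41464 and 20783 CPM in the WT mice and at 13062, 17995 and 24597 CPM in the KO mice, which overlapped. Ang4, the ribonuclease, stood at 3834, 6523 and 3358 CPM in WT and at 1817, 2385 and 2504 CPM in KO. Each WT mouse was thus above each KO mouse, again without a count over all genes. Mmp7, the protease that activates the defensins, stood at 4292, 3406 and 4199 CPM in WT and 3516, 2963 and 3186 CPM in KO, with overlap. WT3 had 2 such cells, and its values rest on them.

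Paneth-like cells fell into 2 sets by Defa30, although nearly all held Defa24. This was noticed in the values and is given as a description. Of 78 Paneth-like cells with more than 1000 member UMIs, 27 had fewer than 5 Defa30 UMIs per 100 Defa24 UMIs, and 26 of those had fewer than 0.5. The other 51 had between 6.46 and 99.5 per 100, and only 2 of the 78 cells lay between 0.5 and 10. The median depth was 52604 UMIs of all genes in the 7 WT cells with little Defa30 and 63595 in the 26 others, and 62864.5 against 105530 in KO (20 and 25 cells). Both sets occurred in each of the 6 mice. Cells with little Defa30 were 2 of 9, 4 of 11 and 1 of 2 in WT1 to WT3 and 7 of 16, 5 of 9 and 7 of 18 in KO1 to KO3, and none of the 11 such WT cells without a mouse.

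The cells with little Defa30 nearly lacked some members and kept others. None of the 27 had more than 2 UMIs of Defa21 or 4 of Defa22, while 46 of the other 51 had 10 or more of both together. Mptx2, a mucosal pentraxin of Paneth cells, had a UMI in 5 of the 27 and in 45 of the 51. Lyz1 was lower in them, at a median of 6285 against 35705 CPM in WT and of 864 against 23481 CPM in KO. Over a whole library Mmp7 was lower in them in WT, at 3484 against 5629 CPM, and stood at 3531 against 3640 CPM in KO. By mouse Mmp7 was higher in them in WT2 (5228 against 3662 CPM), KO2 (4372 against 3325) and KO3 (3165 against 3042). Over a whole library Ang4 was higher in the cells with little Defa30, at 5363 against 1549 CPM in WT and 3214 against 1357 CPM in KO. By mouse Ang4 was lower in them in WT2 (4340 against 6870 CPM) and KO2 (3410 against 3593). The 11 WT cells without a mouse, all in the set with more Defa30, stood at 605 CPM of Ang4 and 7681 CPM of Mmp7. Spink4, a peptide of goblet and Paneth cells, was also higher in the cells with little Defa30, at 69538 against 4466 CPM in WT and 66683 against 6747 CPM in KO. Itln1, a lectin of Paneth and goblet cells, was abundant in both sets, at 28515 and 23640 CPM in WT.

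**Figure D3:**
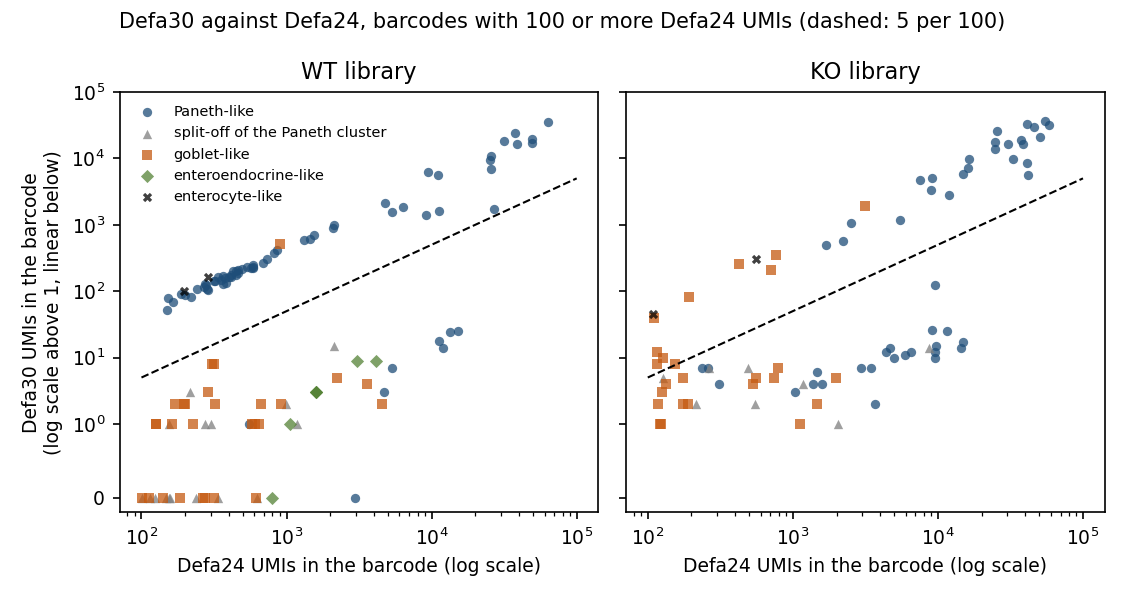
Defa24 UMIs (horizontal, logarithmic) against Defa30 UMIs (vertical, logarithmic above 1) in each barcode with 100 or more Defa24 UMIs, for the WT (left) and KO library (right); colour and shape give the class and the dashed line is 5 Defa30 per 100 Defa24. Paneth-like cells lie in an upper band and a lower group, all 7 WT enteroendocrine-like cells and all cells split from the Paneth cluster lie below the line, and the few enterocyte-like cells lie above it.

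The same low Defa30 was found in the member-rich cells of other secretory classes. Goblet cells make mucus and enteroendocrine cells make hormones, and neither is known for α-defensins. Of the barcodes with 100 or more Defa24 UMIs, 27 of 28 WT and 15 of 25 KO goblet-like cells had fewer than 5 Defa30 per 100 Defa24, as had 7 of 7 WT enteroendocrine-like cells and 16 of 16 WT and 8 of 8 KO cells split from the Paneth cluster. The summed ratio was 0.202 per 100 in those enteroendocrine-like cells, 2.94 in the WT and 20.8 in the KO goblet-like cells. Among barcodes with fewer than 100 Defa24 UMIs, the summed ratio was 8.53 per 100 in WT and 25.2 in KO goblet-like cells, 20.0 and 39.7 in enterocyte-like cells, and 21.9 and 22.3 in barcodes under 1000 UMIs. The 2 WT and 2 KO enterocyte-like cells with 100 or more stood at 53.8 and 53.5.

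These member-rich cells also carried more Itln1, a transcript of Paneth and goblet cells. The 31 WT and 28 KO goblet-like cells with more than 100 member UMIs had 4061 and 3204 CPM of Itln1, against 94.2 and 111 CPM in the other goblet-like cells. The full set of Paneth naming markers, Itln1 included, summed to 7161 against 2621 CPM in WT and 5976 against 2499 CPM in KO. Most of that gap was Itln1. The 7 WT enteroendocrine-like cells above 100 had 26737 CPM of Itln1 and 28100 CPM of enteroendocrine markers, and the 53 others had 37.6 and 78978 CPM. No KO enteroendocrine-like cell exceeded 48 member UMIs. Whether such droplets held more than 1 cell was not tested, since the hashtags mark only droplets that mix mice.

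In the classes below the members were present at a few UMIs per droplet, more in KO than in WT. Enterocyte-like cells, the absorptive cells, held a mean of 2.84 (median 2) member UMIs in WT and 9.84 (median 8) in KO. Tuft-like cells, chemosensory cells, held 3.14 (median 2) and 9.24 (median 7). Immune-like cells, which passed the gate against CD45 in small number (37 and 29), held 1.38 (median 1) and 4.48 (median 4). They were unlike between the libraries, with 196269 CPM of goblet markers beside 14468 CPM of immune markers in WT. In KO these were 39127 and 33966 CPM. Barcodes above the mitochondrial limit had medians of 2 and 6. In each of these classes the KO median lay above the WT median. Some unnamed clusters held more in KO, with medians of 22 in cluster 12, 28 in cluster 21 and 35 in the 4 cells of cluster 14, against 4, 4 and 2 in WT. These KO cells were deep. Per UMI cluster 14 (648 CPM in WT, 379 in KO) was lower in KO, where its 4 cells all came from KO2. Cluster 21 was lower in KO as a whole (1270 and 454 CPM), but 2 WT barcodes held 1761 of its 2015 WT member UMIs. By mouse cluster 21 stood at 2494, 179 and 174 CPM in WT and at 544, 399 and 450 CPM in KO.

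Barcodes with fewer than 1000 UMIs, the emptiest that were deposited, did not form 1 kind. The 264 in WT held 410 member UMIs, a mean of 1.55 and a median of 1. The 63 in KO held 2157, a mean of 34.2 and a median of 4, but 6 barcodes with more than 100 each held 1843 of them. In those 6 the members made up a median of 43.4% of all UMIs, more than the 16.6% of a median KO Paneth-like cell, and their mitochondrial share was 4.23%. The 51 KO barcodes with fewer than 10 member UMIs stood at a median of 3, or 0.478% of their UMIs, against 1 and 0.109% in the 261 such WT barcodes. A droplet this shallow can hold free RNA, a fragment of a cell or a damaged cell, and which of these gave the counts was not tested.

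At equal depth the difference between libraries remained. With each barcode thinned to 500 UMIs, a member UMI was found in 15.0% (2647 WT) and 32.5% (2296 KO) of enterocyte-like cells, against 83.6% and 99.4% before thinning (median depth 7391 and 10252 UMIs). Paneth-like cells stood at 98.6% and 98.2% after thinning. In enterocyte-like cells the mean rose with depth by less than depth itself, from 1.47 UMIs in WT cells of 1000 to 2500 UMIs to 7.40 in those of 50000 or more, and from 5.94 to 22.6 in KO. The CPM fell along the same cells from 823 to 115 CPM in WT and from 3702 to 312 CPM in KO. In each of the 6 depth ranges KO was above WT.

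By mouse, the summed level in enterocyte-like cells came to 248, 217 and 238 CPM in WT (234 ± 15.6, SD, n = 3) and 659, 507 and 590 CPM in KO (585 ± 76.1, SD, n = 3). Every KO mouse lay above every WT mouse, a difference of 1.31 in mean log2 CPM. Different clusters made up the class in the 2 libraries, since cluster 3 was the largest in WT (655 cells, 96 in KO) and cluster 2 in KO (723 cells, 190 in WT). The difference was uneven among the members. Defa22 stood at 2.71, 1.77 and 2.12 CPM in WT and 21.5, 9.62 and 15.5 CPM in KO, whose mean was 7.07 times that of WT. Defa21, with 2.95, 3.13 and 4.39 against 22.7, 12.2 and 17.4 CPM, had a ratio of 5.00. Defa30 stood at 41.1, 36.0 and 32.1 CPM in WT and 156, 127 and 140 CPM in KO, or 3.87 times the WT mean, and Defa24 at 162, 146 and 160 against 395, 308 and 357 CPM, a ratio of 2.26. Lyz1 had 25.1, 22.1 and 28.2 against 46.1, 37.2 and 45.0 CPM, a ratio of 1.70. Defa26 was sparse, with 9 WT and 55 KO UMIs. The WT and KO mice did not overlap for these 6 of the 8 genes, all higher in KO, whereas 9.25% of the 10452 genes tested were separate in either direction and 6.46% with KO higher. In contrast, Ang4 (ratio 1.36) and Mmp7 (ratio 1.19) overlapped.

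**Figure D4:**
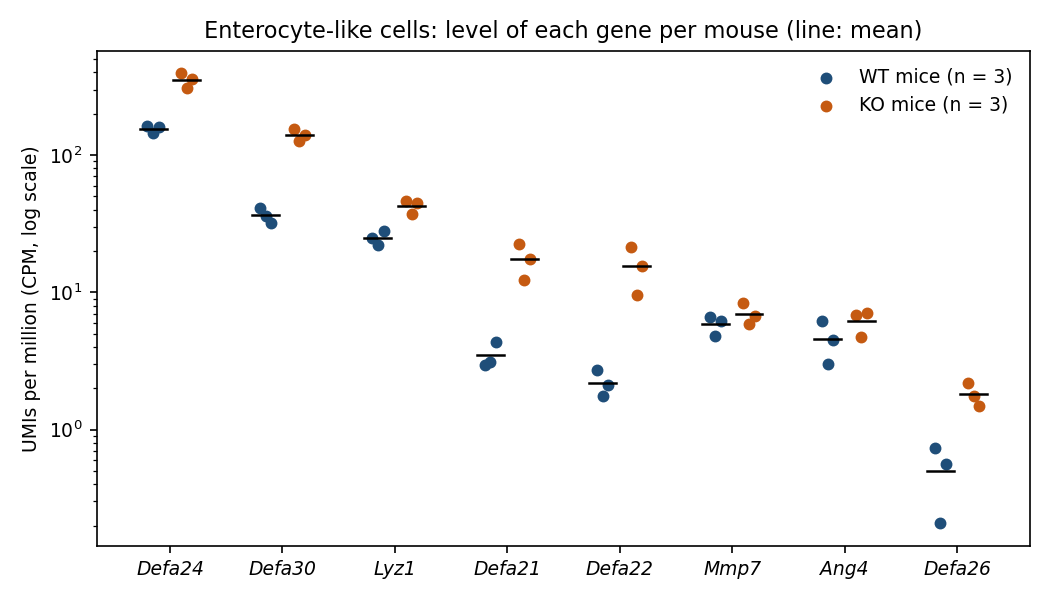
Level of each of the 8 genes in enterocyte-like cells of each mouse, in CPM on a logarithmic axis, with WT mice in blue, KO mice in orange and black lines at the mean of 3 mice. The groups are separate for the 5 defensins and Lyz1, widest for Defa22 (1.77 to 2.71 in WT, 9.62 to 21.5 in KO), and overlap for Ang4 and Mmp7.

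With edgeR's quasi-likelihood test over 10452 genes, none passed an adjusted p of 0.05 in enterocyte-like cells (0.00% called), and 332 had an unadjusted p under 0.05. The lowest adjusted p of a member in this test was 0.10 for Defa30 (log2 fold change 1.82, SE 0.20). Over the alternative settings that of Defa30 ran from 9.86e-13 to 0.9999. DESeq2 on the same sums called 60 of 10297 genes (0.583%), among them 4 of the 8 members, all higher in KO. These were Defa21 (DESeq2 adjusted p = 0.00057), Defa22 (6.4e-05), Defa24 (0.015) and Defa30 (1.4e-09). Mice with the same hashtag number deviated together in this class, and with that number as a block 872 genes passed (8.34%). The members passing then were 5 of 8, all higher in KO: Defa21 (log2 fold change 2.09, SE 0.23, adjusted p = 0.0013), Defa22 (2.61, SE 0.23, adjusted p = 0.00036), Defa24 (1.04, SE 0.13, adjusted p = 0.0024), Defa30 (1.82, SE 0.12, adjusted p = 0.00011) and Lyz1 (0.63, SE 0.13, adjusted p = 0.022). Mice of different number also deviated together where neither bore hashtag 2 (r 0.50 for WT1 with KO3 and 0.72 for WT3 with KO1). Without the 2 mice of hashtag 2 and without a block, 531 of 10283 genes passed (5.16%) and with them the members Defa21, Defa22, Defa24 and Defa30. With the block as well, 1075 genes passed (10.5%), and Lyz1 joined these members.

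For Defa30, Defa21, Lyz1 and Mmp7 the mix in KO enterocyte-like cells lay close to that of the whole KO library, and Defa22 did not. Over all KO barcodes there were 40.9 Defa30, 4.78 Defa21, 11.2 Lyz1 and 1.85 Mmp7 UMIs per 100 Defa24, and in KO enterocyte-like cells 40.4, 5.00, 12.4 and 1.96. Over all WT barcodes there were 32.5 Defa30, 4.62 Defa21, 15.4 Lyz1 and 2.52 Mmp7 per 100 Defa24, and in WT enterocyte-like cells 23.2, 2.20, 14.7 and 3.29. Defa22 ran at 2.90 per 100 Defa24 over all KO barcodes and 4.41 in KO enterocyte-like cells, and at 3.78 and 1.39 in WT. In the mice Defa30 ran at 25.3, 24.6 and 20.1 per 100 Defa24 in WT and at 39.5, 41.3 and 39.1 in KO, so the 3 mice of a library were close to each other and the libraries apart. The Paneth-like cells of the same mice had 38.2, 33.4 and 38.5 per 100 in WT and 39.1, 39.3 and 45.4 in KO, where each KO mouse also lay above each WT mouse, by a smaller gap.

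For Defa21 and Defa22 the mice of a library were likewise closer to each other in enterocyte-like than in Paneth-like cells. Together they made up 3.03%, 9.78% and 0.584% of the members' UMIs in the Paneth-like cells of the WT mice and 3.47%, 8.66% and 1.76% in those of the KO mice, so the mice of a library differed by several times. In enterocyte-like cells they made up 2.28% (exact 95% interval 1.45 to 3.41), 2.26% (1.66 to 2.99) and 2.73% (2.01 to 3.63) in WT and 6.71% (6.04 to 7.43), 4.32% (3.87 to 4.80) and 5.59% (4.95 to 6.28) in KO. There the share of a mouse did not follow that of its own Paneth-like cells: WT3 had the lowest share in Paneth-like cells and the highest of WT in enterocyte-like cells, and WT2 and KO2 were the highest in Paneth-like cells and the lowest in enterocyte-like cells, in WT within the intervals. Without the cells above 100 member UMIs WT2 stood at 2.59%, above WT1, and KO2 at 4.96%, still the lowest of KO. The mice of 1 library shared a suspension from pooling onward, and also a genotype. Whether either bears on these shares was not tested.

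**Figure D5:**
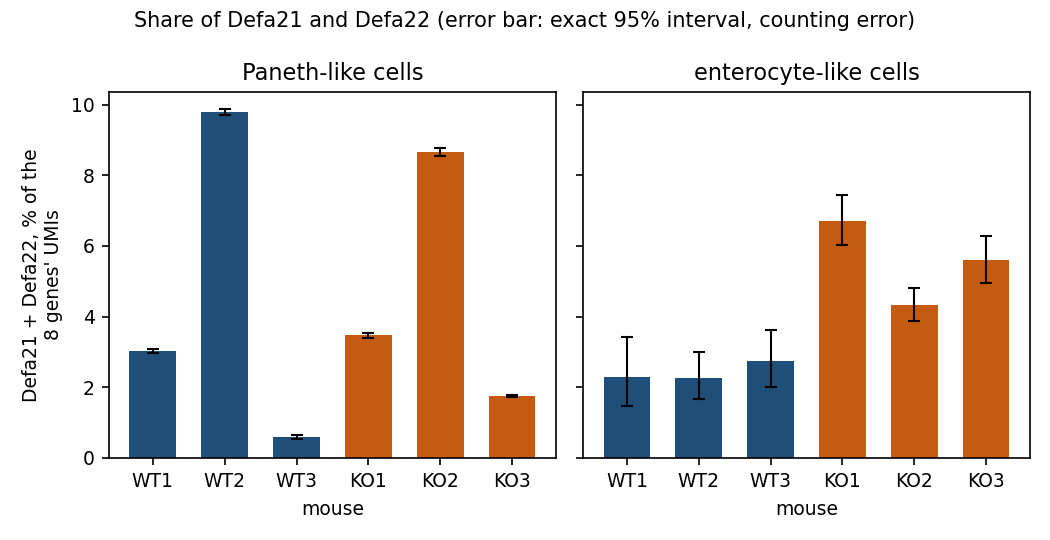
Share of Defa21 and Defa22 in the UMIs of the 8 genes, by mouse, in Paneth-like (left) and enterocyte-like cells (right); bars are percent, error bars exact 95% intervals for counting error. In Paneth-like cells the share runs from 0.584% to 9.78% within WT, while in enterocyte-like cells the WT mice lie at 2.26% to 2.73% and the KO mice at 4.32% to 6.71%.

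In goblet-like cells the summed level overlapped, at 1282, 6030 and 3513 CPM in WT and 2735, 5007 and 2155 CPM in KO, and 66.2% to 91.3% of each WT mouse's and 67.7% to 85.5% of each KO mouse's member UMIs lay in the 6 to 12 cells above 100. With those cells left out the values were 473, 639 and 503 CPM in WT and 801, 779 and 763 CPM in KO, without overlap. This cut used the member UMIs themselves and was chosen after the values were seen, so it gives a description only. How many of all genes separated in the cells left was not counted. Over the whole class 119 of 8826 genes passed (1.35%), among them 2 of the 7 members tested, Defa21 and Defa22, both higher in KO. Defa21 stood at 2.50, 0.532 and 6.88 CPM in WT and 123, 261 and 15.2 CPM in KO (log2 fold change 5.02, SE 0.91, adjusted p = 0.016), and Defa22 at 3.13, 2.13 and 3.44 against 104, 274 and 15.9 CPM (5.30, SE 0.92, adjusted p = 0.012). In KO2 1 cell gave 92.5% of the Defa21 UMIs, and in KO1 1 cell gave 74.1%. With the cells above 100 left out, Defa21 stood at 2.73, 0.649 and 2.47 CPM in WT and 15.2, 15.5 and 16.0 CPM in KO, and Defa30 at 28.0, 33.8 and 23.7 against 137, 113 and 119 CPM. Both calls were lost when WT1 or WT3 was left out (adjusted p 0.068 to 0.11), at log2 fold changes of 4.82 and 6.10 for Defa21 and 5.39 and 5.45 for Defa22. That of Defa21 was also lost without KO2 (4.04, adjusted p = 0.060). With coarser clusters (resolution 0.5) both passed with smaller fold changes, 2.70 for Defa21 and 2.34 for Defa22. The difference between KO and WT was not shown to differ between goblet-like and enterocyte-like cells: the interaction reached an adjusted p under 0.05 for 0 of 10232 genes (230 unadjusted), and that of each member was 1.

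Summed over all cells of a mouse, the members did not separate the genotypes. Their sum stood at 25074, 23670 and 6106 CPM in WT and 25272, 10506 and 43130 CPM in KO, with overlap. Paneth-like cells were 9 of 845, 13 of 866 and 2 of 1062 cells of WT1 to WT3 and 18 of 1030, 14 of 995 and 20 of 843 cells of KO1 to KO3, and the richest cell held 14.8% to 64.9% of a mouse's member UMIs. WT3, with the fewest Paneth-like cells, and KO3, with the most, were also lowest and highest for the members. None of 12944 genes passed (0.00%; 232 with an unadjusted p under 0.05, 36 in DESeq2), and with the hashtag block 152 passed (1.17%) without any member. The adjusted p of the members was 0.99 in each case and lay between 0.33 and 0.99998 over the alternative settings. Of the 8, 4 had a positive fold change, and the median over the members was 0.04 on the log2 scale against 0.06 over all genes.

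The gene table held 24 other α-defensin loci. They gave 282943 UMIs in WT and 437114 in KO, most of them from AY761184, Gm14851 and, in KO, Defa36, and 3 loci had no UMI in WT and 3 none in KO. In enterocyte-like cells 9 could be tested, none passed without the block, and 7 passed with it, beside 8.34% of all genes, all higher in KO, with a median log2 fold change of 2.01 against 0.06 over all genes. Gm14851 stood at 6.15, 9.80 and 7.64 CPM in WT and 44.6, 36.3 and 38.2 CPM in KO. Defa17 stood at 14.8, 13.5 and 16.1 against 14.8, 15.2 and 17.0 CPM and overlapped. In all cells 15 could be tested and none passed with or without the block.

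Of 13 other granule and secreted products of Paneth cells in the gene table, 10 could be tested in enterocyte-like cells. None passed without the block, and with it 1 passed as higher in KO (Spink4) and 2 as lower (Reg3g and Pnliprp2), 3 of 10 beside 8.34% of all genes. Their median log2 fold change was 0.17. Itln1 stood at 38.6, 34.2 and 44.3 CPM in WT and 51.8, 38.6 and 48.0 CPM in KO, or 1.18 times the WT mean with overlap, beside 3.87 times for Defa30. Reg3g, an antibacterial lectin that enterocytes also make, was far above the members in both genotypes, at 2305, 14427 and 3741 against 1357, 4887 and 2556 CPM. Of the 9 genes of Paneth fate and niche signals that could be tested in these cells, none passed without the block. With it 1 passed as higher (Cd24a) and 1 as lower (Dll1, a Notch ligand), 2 of 9 beside the same 8.34%, and the list's median was -0.01. Over all cells Mptx2 alone of both lists passed with the block, lower in KO with a log2 fold change of -1.54.

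RNAs of other secretory cells gave another picture of the low level in enterocyte-like cells. Markers of goblet cells had a mean of 35.5 UMIs per enterocyte-like cell in WT and 27.1 in KO, and summed to 3315 and 1585 CPM. Those of enteroendocrine cells had means of 0.836 and 1.33 UMIs, which made 78.1 and 77.5 CPM. The 5 Paneth naming markers Mptx2, Itln1, Clps, Habp2 and Ccl6 had 0.638 and 1.05 UMIs, or 59.7 and 61.2 CPM. Per UMI these 2 lists were thus nearly level between the libraries, while the members stood at 266 and 575 CPM. For the Paneth markers this holds for the 5 named only. The full set of 9 naming markers was lower in KO in these cells, with a sum of 112 CPM against 165 for WT. The other α-defensin loci had 0.609 and 2.15 UMIs, or 57.0 and 126 CPM. The part of free RNA in any of these was not tested.

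The genes whose levels followed the summed members most closely over clusters were Itln1 (Pearson's r 0.97 over 27 WT clusters and 0.98 over 22 KO clusters), Spink4 (0.86 and 0.85), Ccl9, Ccl6, Clps, Mptx2, Nupr1 and Agr2. The r of the last, Agr2, was 0.74 and 0.71. These clusters share a library each and differ in depth, so the values only rank the genes.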

How the data were processed

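Single-cell RNA of 1 WT and 1 KO library was analysed. Raw UMI counts per gene and hashtag were deposited by the authors as filtered matrices of Cell Ranger 7.0.1, per the file headers, on mm10. Seurat 4.1.0 is also named in the submitters' processing notes. Whether introns were counted, and how reads that fit several loci were placed, is not given in the sources used here.

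Barcodes were given to mice with HTODemux (Seurat 5.3.0, quantile 0.99). Barcodes with at least 1000 UMIs, 500 genes and at most 25% mitochondrial UMIs were kept, and droplets with several hashtags were set aside. Other doublets were not called. Cells of both libraries were clustered with scanpy 1.11.5 and leidenalg 0.10.2 (2000 variable genes, 30 components, 15 neighbours, resolution 1), with the 8 genes and the other α-defensins left out. Clusters were named from markers where 3 or more were above 20 CPM, the best list led and no leading genes went against it. Clusters 1, 4, 9, 12, 14 and 21 stayed unnamed. The Paneth cluster was split again (resolution 0.3) after its values were seen. Names were rebuilt and may differ from those of the study.

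UMI sums per mouse were tested with edgeR 4.0.16 (TMM, filterByExpr, quasi-likelihood, Benjamini-Hochberg over all genes tested, threshold 0.05) where each mouse had 20 cells (10 for Paneth-like cells). DESeq2 1.42.0, other filters, other hashtag and cluster settings and each mouse left out were the alternatives. Mice of 1 hashtag number deviated together in all cells (r = 0.42, 0.85 and 0.64) and in enterocyte-like cells (0.61, 0.89 and 0.69). The labels state no pairing, so the block is given beside those results. On simulated data for the enterocyte-like comparison (10452 genes) 99.5% of 200 genes changed 4-fold were recovered with 13 false calls. The simulated mice had a dispersion of 0.05 for every gene and did not deviate together as the real mice did. That run checks the code and does not give the power of the test in the real data. Exact intervals are Clopper-Pearson at 95%. All 8 genes are named, and of the other lists those with most UMIs or passing a test. The members, lists and classes were chosen with earlier results of these data known.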

Additional observations from a re-analysis of the deposited data

How the results depend on the processing

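Over all cells the number of genes passing was 0 and became 152 with the replicate block, 36 with DESeq2, 9 without the pair of hashtag 2 and 55 without it with the block. In enterocyte-like cells it became 872, 60, 531 and 1075. In goblet-like cells 119 became 187 with the block, 452 without the filter on low counts, 218 at resolution 0.5, 353 without the pair of hashtag 2, 1095 without it with the block, and 33 to 696 when 1 mouse was left out (696 without WT2, 33 without WT3). In goblet-like cells hashtag numbers did not pair the mice (r = 0.11, 0.04 and -0.00). The share of member UMIs in Paneth-like cells was 72.6% in WT and 64.9% in KO at resolution 0.5, 64.1% and 60.2% with the members left in the clustering, and 77.9% and 68.3% with the Paneth cluster not split; with a mitochondrial limit of 50% it was 67.4% in KO. Thinned to 1000 UMIs, a member UMI was found in 27.1% (WT) and 50.2% (KO) of enterocyte-like cells. In enterocyte-like cells the members kept their direction in KO except Mmp7 (-0.021 at resolution 0.5, -0.075 to 0.24 when 1 mouse was left out). The summed level there kept its direction under each alternative run.

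Over all cells, where no member passed, 27 of 104 log2 fold changes of members under an alternative had the other sign. With the block Defa21 had 0.75 and Defa22 0.24. Under the hashtag ratio rule Ang4 had 0.026, Defa21 1.16, Defa22 0.61 and Lyz1 0.028. Without the pair of hashtag 2 these were 0.41, 1.06, 0.59 and 0.49, and with the block as well 0.68, 2.08, 1.97 and 0.79. When 1 mouse was left out the values ran from -0.89 to 0.042 for Ang4, -0.70 to 0.96 for Defa21, -1.18 to 0.42 for Defa22, -0.15 to 0.89 for Defa24, -0.66 to 0.68 for Defa26, -1.01 to 0.29 for Lyz1 and -0.021 to 0.75 for Mmp7. In goblet-like cells Ang4 had 0.40 at resolution 0.5, and 0.24 without the pair of hashtag 2 with and without the block. Lyz1 had -0.035 with the block, -0.57 at resolution 0.5, -0.96 without the pair and -0.92 without it with the block, and Mmp7 0.19 and 0.28 in the last 2. In the last 3 of these Lyz1 passed as lower in KO (adjusted p = 0.030, 0.034 and 5.98e-11). When 1 mouse was left out they ran from -0.40 to 0.24 for Ang4 and -0.75 to 0.67 for Lyz1. The cause was not tested. Leaving out the pair of hashtag 2, the split of the Paneth cluster, the goblet-like values without cells above 100 and the interaction were chosen after seeing the data. In goblet-like cells the doublet filter left 11 to 13 cells per WT mouse and was not run. Depth limits Defa26 most, and counts of 1 pool per genotype limit every comparison.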
